A study of Mus musculus with 4 samples.

Results

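Lineage-positive (Lin+) cells, the most mature fraction of a sorted mouse bone marrow series, were set against long-term hematopoietic stem cells (LT-HSC), the least mature. Genes entered the comparison when their probe was well above background, a flag that the scanner software sets for each spot, on at least 1 of the 2 arrays. That left 13285 of the 20284 genes named on the array, or 65.5%, against 13761 genes well above background on any of the 4 arrays of the series. All fractions came from the marrow of female C57BL6 mice aged 8 weeks, with no transgene or treatment named. The Lin+ fraction is labelled as differentiated cells and is defined by the presence of lineage antigens alone, whose antibodies the labels do not list. The LT-HSC fraction is labelled CD34-KSL, that is, negative for CD34 and for lineage antigens and positive for c-Kit and Sca-1. The other fractions, short-term stem cells (ST-HSC, CD34+KSL) and progenitors (c-Kit+ Lin-), are used here only to place a level between the 2 ends. Each fraction had 1 array, labelled replicate 1, and the labels do not say how many mice were pooled, so the differences below lack a replicate check and none has a p-value.

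A level is the log2 processed signal of a gene's probe minus the 75th percentile of its array, and a difference is the Lin+ level minus the LT-HSC level, so that positive values are higher in Lin+ cells. The ± beside a difference is the scanner software's own error of the 2 spots combined, with a median of 0.20, and leaves out the spread between mice. Where only 1 side was well above background, the difference is a lower bound of its size and is given as at least N-fold. Genes at least 2-fold apart, bounds included, are called higher or lower. Levels of different probes are not comparable, so only differences are set beside each other. The 4 arrays shared 1 slide and 1 scan. Probes well above background made up 45.9% on the Lin+ array and 40.9% on the LT-HSC array, and 1 array per fraction limits the precision. A member that passed the filter through 1 array alone had to differ by its bound, so beside the medians of lists that hold many such members the median over members measured on both arrays is given.

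Long-term stem cells are rare, mostly quiescent marrow cells that can rebuild all blood lineages after transplantation. They lose this ability step by step as they give rise to progenitors and then to cells that carry the surface antigens of a lineage. The Lin+ fraction of marrow is a mixture, known to be rich in granulocytes and nucleated red cell precursors, with B cells, monocytes and fewer T and NK cells. In such a mixed fraction, fewer cells of a type and less RNA per cell cannot be told apart.

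The promoters below belong to genes on which the contrast turns: an alpha globin gene and a neutrophil granule gene, which were far higher in Lin+ cells, and a surface receptor gene that was far lower. Each line gives the 250 bases before the start of the RefSeq gene, from the RefSeq promoters of GRCm38.p6, 5′ to 3′ on the gene's strand. Capitals mark matches to 1 motif per gene, that of GATA factors for Hba-a1, of C/EBP factors for Ltf and of ETS factors for Robo4. Matches to the other motifs are left in lower case. The motifs, searched on both strands, were AGATAA or TGATAA for GATA factors, TTNNGNAA for C/EBP factors and AGGAAG for ETS factors, where N is any base. Hba-a1 lies at chr11:32283422-32283671 on the plus strand, Ltf at chr9:111019042-111019291 on the plus strand and Robo4 at chr9:37401722-37401971 on the plus strand.
Hba-a1: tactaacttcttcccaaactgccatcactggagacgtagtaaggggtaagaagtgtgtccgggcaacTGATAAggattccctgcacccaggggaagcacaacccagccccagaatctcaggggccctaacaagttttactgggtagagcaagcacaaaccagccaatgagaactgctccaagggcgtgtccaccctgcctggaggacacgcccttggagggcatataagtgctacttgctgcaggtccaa
Ltf: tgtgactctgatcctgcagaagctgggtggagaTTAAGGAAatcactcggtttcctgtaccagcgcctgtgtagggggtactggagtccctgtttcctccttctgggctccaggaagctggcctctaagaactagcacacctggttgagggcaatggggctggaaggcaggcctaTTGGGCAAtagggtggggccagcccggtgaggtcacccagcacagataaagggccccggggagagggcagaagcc
Robo4: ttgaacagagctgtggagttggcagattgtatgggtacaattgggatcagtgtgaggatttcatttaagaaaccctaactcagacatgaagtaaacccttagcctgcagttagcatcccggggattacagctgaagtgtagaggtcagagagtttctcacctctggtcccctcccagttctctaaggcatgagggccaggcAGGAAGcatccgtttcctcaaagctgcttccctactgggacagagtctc
The Hba-a1 stretch held 1 GATA match, the Ltf stretch 2 C/EBP matches and the Robo4 stretch 1 ETS match. Each gene was the preset member of its list with the largest measured difference among those whose promoter holds the list's motif. A match was therefore fixed by the choice of gene. Of all 27025 promoters in the table, 17.0% held the GATA motif, 36.9% the C/EBP motif and 29.2% the ETS motif, so these matches are descriptions and not sites. No share over the called genes is given, because fewer than 80% of them had a promoter in the table (78.5% of those higher and 79.1% of those lower).

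The contrast was wide. Of the 13285 compared genes, 2144 (16.1%) were at least 2-fold higher in Lin+ cells and 3086 (23.2%) at least 2-fold lower. The higher genes consisted of 1463 measured on both arrays and 681 bounds, and the lower genes of 2335 and 751. Higher genes thus made up 41.0% of the calls. That share became 51.2% when the median gene, taken over genes measured on both arrays, was set to no difference. It was 55.3% when the spike-in controls were set equal. The median difference over all compared genes was -0.15, and over the 11064 genes measured on both arrays it was -0.21, with 5th and 95th percentiles of -2.32 and 2.14. Large differences leaned the other way from the count of calls. At least 16-fold differences numbered 326 higher against 220 lower genes, at least 64-fold differences 123 against 29, and at least 256-fold differences 45 against 0. In the count of genes by size of difference, the bars cross between the 4-fold step, with 1019 higher and 1194 lower genes, and the 16-fold step.

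**Figure D1:**
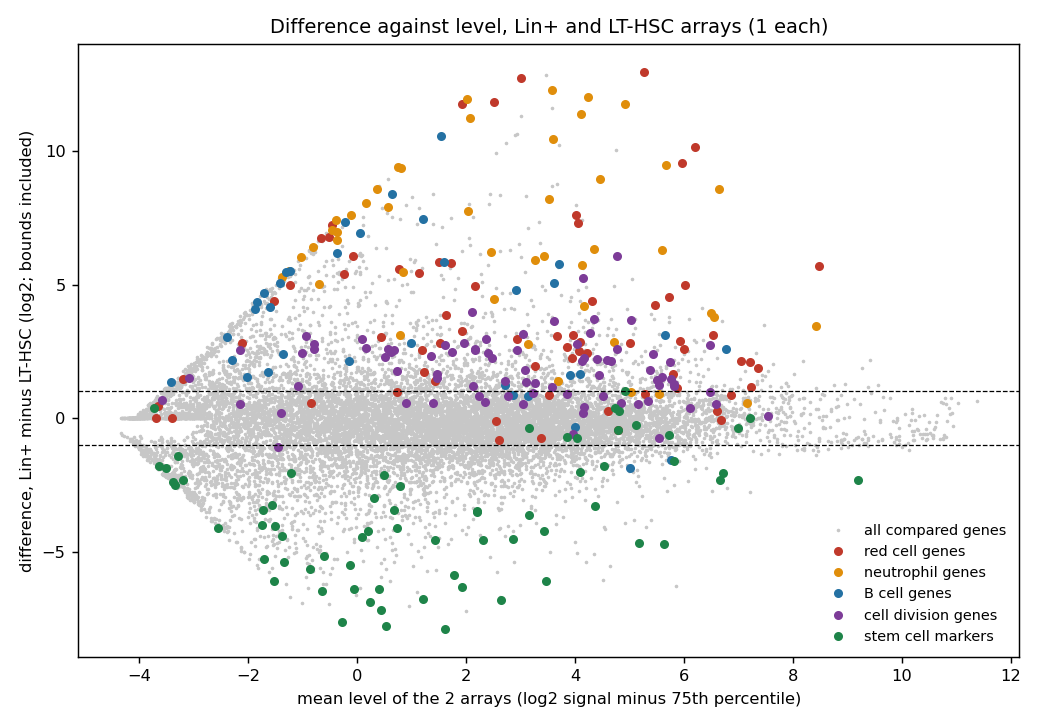
Difference (Lin+ minus LT-HSC, log2, bounds included) against the mean level of the 2 arrays (log2 signal minus the array's 75th percentile), 1 point per compared gene, with red cell, neutrophil, B cell, cell division and stem cell marker genes in colour and dashed lines at 2-fold. Red cell and neutrophil genes reach the top of the plot, stem cell markers its lower edge, and cell division genes lie mostly above the upper line.

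**Figure D2:**
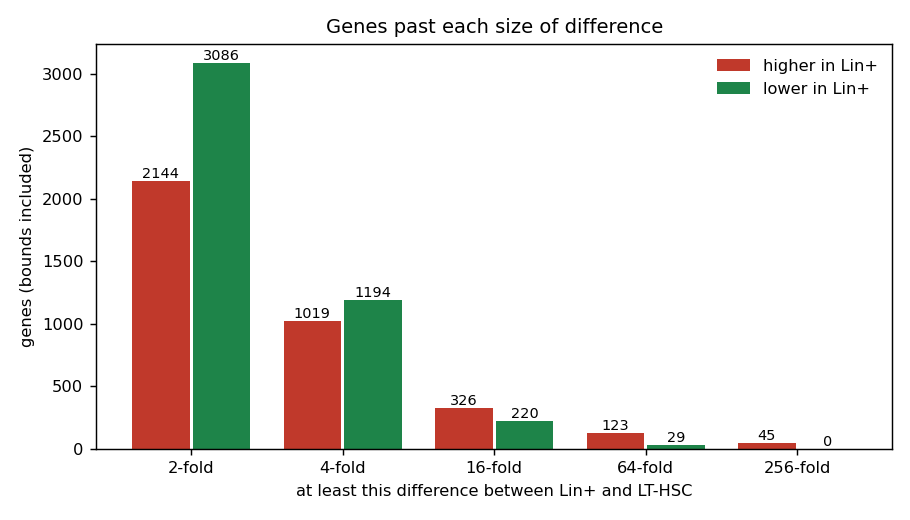
Number of compared genes at least 2-fold, 4-fold, 16-fold, 64-fold and 256-fold higher (red) or lower (green) in Lin+ cells than in LT-HSC, bounds included. Lower genes outnumber higher ones at 2-fold (2144 higher, 3086 lower), and higher genes outnumber lower ones from 16-fold on (326 higher, 220 lower).

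The 4 marker genes of the fractions were chosen with their differences known, so they are no independent check of the labels. Procr, the endothelial protein C receptor used to purify stem cells, was not well above background in Lin+ cells (measured level -3.37), against a level of 4.44 in LT-HSC, at least 224-fold lower in Lin+ cells. Esam, a junctional adhesion molecule found on stem cells, was not well above background in Lin+ cells (measured level -4.77), against a level of 4.19 in LT-HSC, at least 202-fold lower in Lin+ cells. Both were lower at each step of the series, Procr with levels of 4.44 in LT-HSC, 2.27 in ST-HSC, -0.52 in the progenitors and -3.37 in Lin+ cells (not well above background), and Esam with levels of 4.19 in LT-HSC, 1.74 in ST-HSC, 0.36 in the progenitors and -4.77 in Lin+ cells (not well above background). Camp, the cathelicidin of neutrophil granules, had a level of 10.80 in Lin+ cells and -0.96 in LT-HSC, a difference of 11.76 ± 0.22, and its other probe gave 11.81. Hba-a1, an alpha globin gene, had a level of 11.76 in Lin+ cells and -1.22 in LT-HSC, a difference of 12.98 ± 0.23, which is 8092-fold. Its processed signal was 798185 on the Lin+ array and 82.0 on the LT-HSC array. Hba-a1 shares nearly all of its coding sequence with Hba-a2, so the probes of the alpha globin copies may read each other.

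The genes behind the gates differed in direction at the RNA level. Kit, the stem cell factor receptor, had a level of 1.67 in Lin+ cells and 5.63 in LT-HSC, a difference of -3.97 ± 0.20. Cd34, the sialomucin whose absence defines the LT-HSC gate, had a level of 3.26 in Lin+ cells and 7.34 in LT-HSC, a difference of -4.08 ± 0.20, and its other probe gave -2.79, so its RNA was lower in the Lin+ cells than in a fraction sorted as CD34-negative. The Cd34 levels in stage order were 7.34 in LT-HSC, 8.53 in ST-HSC, 7.51 in the progenitors and 3.26 in Lin+ cells, the highest in ST-HSC. Ly6a, which encodes Sca-1, was alike on the 2 arrays, with a level of 4.51 in Lin+ cells and 4.52 in LT-HSC, a difference of -0.017 ± 0.20, while both middle fractions were below them (3.12 in ST-HSC and 2.28 in the progenitors). Among the genes of lineage antigens, Ptprc, the gene of CD45 and of its B220 form, had a level of 2.36 in Lin+ cells and -0.079 in LT-HSC, a difference of 2.44 ± 0.21. Il7r, the interleukin-7 receptor, had a level of 2.02 in Lin+ cells and was not well above background in LT-HSC (measured level -3.23), at least 31.1-fold higher in Lin+ cells. Cd3e, a T cell receptor chain, differed by 1.19 ± 0.20, and Cd4 by 0.52 ± 0.20, under 2-fold. Cd8a was at least 2.44-fold higher, a call lost under normexp background correction (0.60). Itgam, the gene of CD11b, had 3 probes that disagreed: the brightest differed by -0.10 ± 0.20, while the others gave 2.45 and 4.62. Ly6g, the neutrophil antigen gene, was not compared, as it is not named on the array. Of the 7 lineage antigen genes compared, 5 were called higher and 0 lower, beside 16.1% higher and 23.2% lower over all compared genes.

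**Figure D3:**
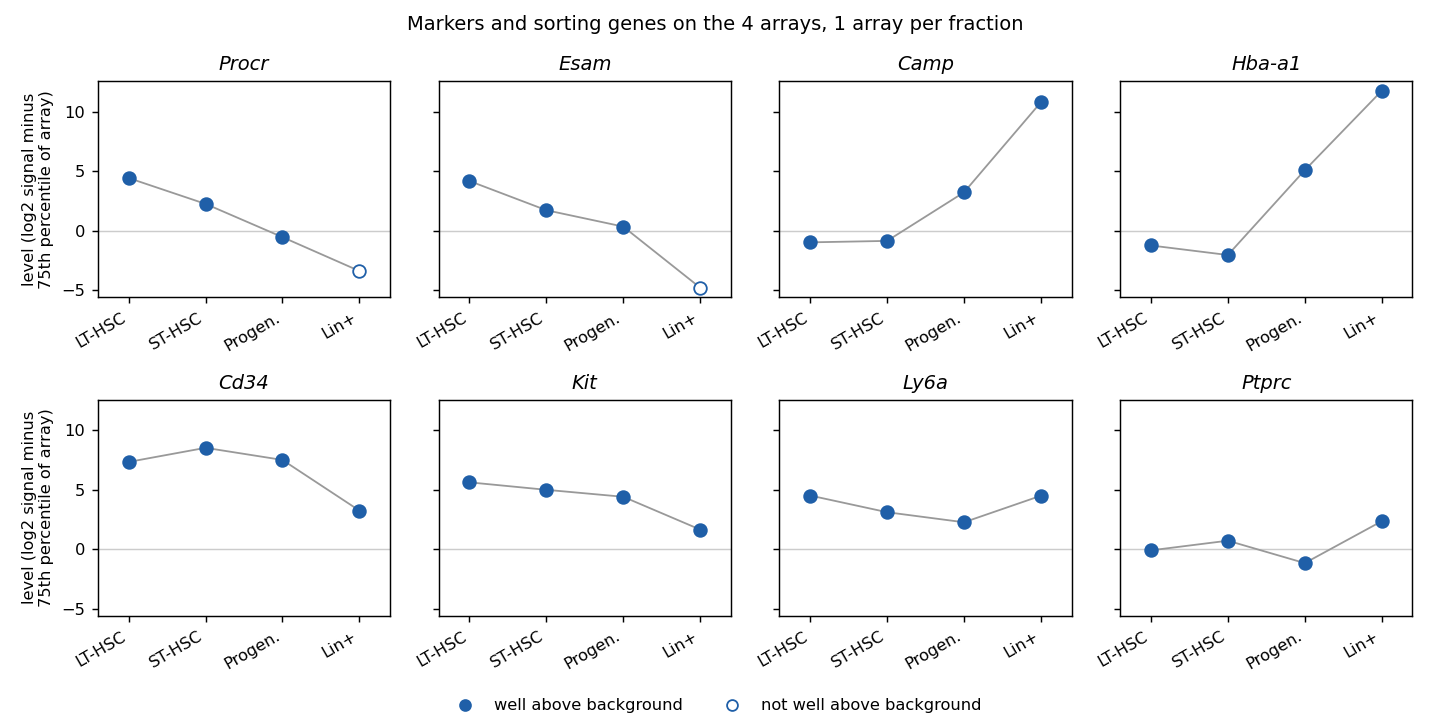
Levels (log2 signal minus the array's 75th percentile) of the marker genes Procr, Esam, Camp and Hba-a1 and of the sorting genes Cd34, Kit, Ly6a and Ptprc on the 4 arrays in stage order, 1 point per array, open where the probe was not well above background. Procr and Esam fall to background in Lin+ cells, Camp and Hba-a1 climb to levels above 10, and Ly6a stands at 4.51 in Lin+ cells and 4.52 in LT-HSC.

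Stem cell genes were lower in Lin+ cells almost throughout. Of 67 compared genes of the stem cell list, 55 were called lower and 1 higher, with a median difference of -3.53 (-3.28 over the 45 measured on both arrays), beside 23.2% lower, 16.1% higher and a median of -0.15 over all compared genes. This list was chosen with results of these data known, so its direction is not independent evidence. Of its 17 compared surface protein genes, 15 were lower, with a median of -4.47 (-4.47 also over the 7 measured on both arrays). Robo4, a guidance receptor by which stem cells are held in marrow, had a level of -2.18 in Lin+ cells and 4.60 in LT-HSC, a difference of -6.78 ± 0.26. F11r, a junctional adhesion molecule, was at least 147-fold lower, Tie1, an orphan receptor tyrosine kinase, at least 50.7-fold lower, and Jam3 at least 42.2-fold lower. Slamf1, the gene of the stem cell antigen CD150, was not well above background in Lin+ cells (measured level -3.60), against a level of 0.59 in LT-HSC, at least 16.7-fold lower in Lin+ cells. The angiopoietin receptor gene Tek was at least 4.99-fold lower. Adgrg1, an adhesion receptor of the G protein-coupled class, differed by -4.68 ± 0.20, Eng, a TGF-beta co-receptor, by -3.48 ± 0.21, and the integrin gene Itga6 by -2.01 ± 0.20. Cd9, a tetraspanin shared by stem cells and platelets, differed by 0.26 ± 0.20, under 2-fold.

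Among 23 transcription factor genes of the stem cell list, 19 were lower and 0 higher, with a median of -3.26 (-2.32 over the 15 measured on both arrays). Hlf, a factor that maintains quiescent stem cells, had a level of -1.23 in Lin+ cells and 5.09 in LT-HSC, a difference of -6.32 ± 0.22. Meis1, a homeodomain partner of Hox proteins, had a level of 0.41 in Lin+ cells and 6.53 in LT-HSC, a difference of -6.12 ± 0.21. Both were already lower in the progenitors (0.94 for Hlf and 3.99 for Meis1) and lowest in Lin+ cells. Nkx2-3 was at least 85.5-fold lower, Prdm16, which supports stem cell maintenance, at least 38.6-fold lower, and Zfp521 at least 35.5-fold lower. Gata2, the GATA factor of stem and early progenitor cells, differed by -4.24 ± 0.20, and Hoxa9 by -3.26 ± 0.32. Hoxb5, whose reporter marks long-term stem cells, was not well above background in Lin+ cells (measured level -5.77), against a level of 0.64 in LT-HSC, at least 17.2-fold lower in Lin+ cells. Mecom, the gene of EVI1, was at least 3.46-fold lower, a call lost under normexp background correction and when its probes were averaged (-0.85). The factors that blood lineages keep in use did not differ by 2-fold: Tal1 by -0.27 ± 0.20, Lyl1 by -0.36 ± 0.20 and Gfi1b by -0.44 ± 0.20.

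Of the 27 other genes of the stem cell list, 21 were lower and 1 higher. Cyp26b1, which breaks down retinoic acid in cells, was not well above background in Lin+ cells (measured level -4.29), against a level of 3.01 in LT-HSC, at least 88.7-fold lower in Lin+ cells. Cavin2, a coat protein of caveolae, had a level of -3.21 in Lin+ cells and 3.68 in LT-HSC, a difference of -6.89 ± 0.32, and the related Cavin1 a level of -0.73 in Lin+ cells and 5.97 in LT-HSC, a difference of -6.71 ± 0.21. Mycn, a growth-promoting factor of the Myc family, differed by -6.42 ± 0.29, and Angpt1, a ligand of Tek, by -5.90 ± 0.21. Ifitm1, an interferon-inducible membrane protein kept on in stem cells, differed by -4.71 ± 0.20. Fgd5, a gene whose reporter marks stem cells, was at least 3.68-fold lower, although normexp correction left -0.84. Aldh1a1, an aldehyde dehydrogenase, was the member called higher, with a level of 5.44 in Lin+ cells and 4.41 in LT-HSC, a difference of 1.03 ± 0.20, and Abcg2, the efflux pump behind the side population of stem cells, differed by 0.39 ± 0.20.

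Genes of megakaryocytes and platelets were lower in Lin+ cells more often than higher, with 21 of 36 compared genes lower, 4 higher and a median of -1.52 (-1.39 over the 31 measured on both arrays), beside 16.1% higher and 23.2% lower over all compared genes. No platelet adhesion receptor of 16 compared was called higher and 12 were lower. Vwf, the factor that tethers platelets and marks a class of stem cells, had a level of 0.59 in Lin+ cells and 5.14 in LT-HSC, a difference of -4.54 ± 0.21. Its course was not monotonic, with 5.14 in LT-HSC, -0.13 in ST-HSC, 4.45 in the progenitors and 0.59 in Lin+ cells. Pf4, a chemokine of platelet alpha granules, had a level of 1.68 in Lin+ cells and 6.30 in LT-HSC, a difference of -4.63 ± 0.20, and was highest in the progenitors (7.92). Treml1, a receptor stored in alpha granules, differed by -5.72 ± 0.22, Itga2b, the alpha chain of the fibrinogen receptor, by -2.33 ± 0.21, and Gp9, a part of the von Willebrand factor receptor, by -2.45 ± 0.20. Gp5, another part of that receptor, was at least 14.6-fold lower, and Itgb3, the beta chain that pairs with Itga2b, differed by -0.17 ± 0.20. The members higher in Lin+ cells included Thbs1, thrombospondin, with a difference of 4.20 ± 0.21, and F5, coagulation factor V, with 3.86 ± 0.23. Of the 42 list genes on the array, 33 were well above background in Lin+ cells and 34 in LT-HSC, with summed signals of 316.5 in Lin+ cells and 597 in LT-HSC times the 75th percentile of the array.

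Genes of cells that a marrow gate could also hold were read beside the stem cell genes. Of 15 endothelial marker genes on the array, 8 were well above background in Lin+ cells and 10 in LT-HSC, with summed signals of 50.2 in Lin+ cells and 199 in LT-HSC, in the same unit. The endothelial list shares Tek, Tie1 and Vwf with stem cells, and Cdh5, the cadherin that defines endothelium, was not well above background in LT-HSC (measured level -4.89) and had a level of -2.56 in Lin+ cells. Of 12 compared endothelial genes, 6 were called lower and 1 higher, with a median of -1.44 (-0.28 over the 6 measured on both arrays). These counts are read beside 23.2% lower and 16.1% higher over all compared genes. The endothelial genes Lyve1, Flt4 and Sox17 were not well above background on either array. Like Cdh5, they were chosen after their values were seen. Of 16 marrow stroma marker genes, 8 were well above background in Lin+ cells and 6 in LT-HSC, with sums of 25.3 in Lin+ cells and 29.5 in LT-HSC. Among these, Col1a2, a collagen chain, differed by -4.48 ± 0.28 and Pdgfrb, a receptor of pericytes, by -4.11 ± 0.28, while Col1a1 was at least 3.39-fold higher in Lin+ cells, though not under normexp correction (0.89), and Adipoq, Col3a1 and Pdgfra were not well above background on either array. Adipoq, Col3a1 and Pdgfra were likewise chosen after their values were seen. Of 8 compared stroma genes, 4 were called lower and 2 higher. The part of endothelial and stroma cells in the differences was not tested.

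Neutrophil genes were higher in Lin+ cells, 43 of 46 compared and 0 lower, with a median difference of 6.38 (5.91 over the 29 measured on both arrays). The counts of this and the other lineage lists below are read beside 16.1% higher and 23.2% lower over all compared genes. Neutrophils fill their granules in order as they mature, with primary granules first and secondary and tertiary granules later. All 6 primary granule genes were higher, with a median of 4.68. Mpo, myeloperoxidase, had a level of 10.15 in Lin+ cells and 6.70 in LT-HSC, a difference of 3.45 ± 0.20, and Elane, neutrophil elastase, a level of 7.51 in Lin+ cells and 1.16 in LT-HSC, a difference of 6.35 ± 0.21. Both had their highest level in the progenitors (11.58 for Mpo and 8.73 for Elane), above that of Lin+ cells. Ctsg, cathepsin G, differed by 6.30 ± 0.20, and Prtn3, proteinase 3, by 2.87 ± 0.20. All 14 secondary and tertiary granule genes were higher, with a median of 8.79 (10.18 over the 8 measured on both arrays). Ltf, lactoferrin, whose promoter is printed above, had a level of 9.74 in Lin+ cells and -2.58 in LT-HSC, a difference of 12.32 ± 0.33, and its levels in ST-HSC (-2.59) and the progenitors (-1.52) were close to that of LT-HSC. Camp and Lcn2 stood further above their LT-HSC levels in the progenitors, with 3.24 for Camp and 2.12 for Lcn2, against -0.96 and -1.58 in LT-HSC. Ngp, the neutrophilic granule protein, had a level of 9.04 in Lin+ cells and was not well above background in LT-HSC (measured level -5.00), at least 4042-fold higher in Lin+ cells. Chil3, a chitinase-like lectin, differed by 12.03 ± 0.25, and Lcn2, the iron-siderophore carrier lipocalin 2, by 11.40 ± 0.25. The collagenase gene Mmp8 was at least 678-fold higher and the gelatinase gene Mmp9 at least 132-fold higher.

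Of 11 genes of calcium-binding and cytosolic proteins of neutrophils, 11 were higher, with a median of 6.40 and a range of 1.38 to 11.26. Over the 5 of them measured on both arrays, the median was 3.95. S100a8 had a level of 10.42 in Lin+ cells and 0.93 in LT-HSC, a difference of 9.48 ± 0.21, and S100a9, its partner in calprotectin, a level of 10.94 in Lin+ cells and 2.35 in LT-HSC, a difference of 8.59 ± 0.20. Wfdc21, a whey acidic protein family gene, was at least 2459-fold higher, and the stefin genes Stfa1, Stfa2, Stfa2l1 and Stfa3, which are near-identical copies that probes may not separate, were at least 65.7-fold, 101-fold, 84.3-fold and 39.0-fold higher. Of 15 receptor and factor genes, 12 were higher. Cebpe, the C/EBP factor needed for secondary granules, had a level of 7.61 in Lin+ cells and -0.59 in LT-HSC, a difference of 8.20 ± 0.22, Cxcr2, the receptor by which neutrophils leave the marrow, was at least 32.3-fold higher, and the formyl peptide receptor genes Fpr1 and Fpr2 at least 195-fold and 268-fold. The members under 2-fold included Csf3r, the G-CSF receptor, with 0.55 ± 0.20, and Selplg with 0.91 ± 0.20, both of which were well above background in LT-HSC too.

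Granule genes of eosinophils and basophils were among the largest differences, although these cells are a small part of marrow. Of 22 compared genes of their list, which also covers mast cells, 18 were higher and 0 lower, with a median of 4.46, and of 1.98 over the 11 measured on both arrays. Prg2, the major basic protein of eosinophils, had a level of 9.91 in Lin+ cells and was not well above background in LT-HSC (measured level -2.97), at least 7398-fold higher in Lin+ cells, and its other levels in stage order were -0.98 in ST-HSC and 6.63 in the progenitors. Epx, eosinophil peroxidase, was at least 721-fold higher and Prg3 at least 500.3-fold. The eosinophil ribonuclease genes Ear1 and Ear2, which are near-identical copies and so uncertain one by one, differed by 10.65 ± 0.32 and 10.06 ± 0.21. Mcpt8, a protease of basophils, had a level of 4.61 in Lin+ cells and was not well above background in LT-HSC (measured level -3.33), at least 188-fold higher in Lin+ cells, and Prss34, another basophil protease, was at least 413-fold higher. Hdc, which makes histamine, differed by 6.55 ± 0.21. Genes of mast cells stood apart within the list, since Cpa3 differed by 0.64 ± 0.20 and Tpsb2 by 0.49 ± 0.25, both under 2-fold, and Cma1 was not well above background on either array.

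Red cell genes were higher in 53 of 68 cases and lower in 0, with a median of 2.83 (2.67 over the 53 measured on both arrays). Of 19 globin and heme genes, 18 were higher. Alas2, which begins heme synthesis in erythroid cells, had a level of 8.84 in Lin+ cells and was not well above background in LT-HSC (measured level -5.00), at least 3522-fold higher in Lin+ cells. Fech, which inserts iron into heme, had a level of 8.00 in Lin+ cells and 3.45 in LT-HSC, a difference of 4.55 ± 0.20, and Slc25a37, the mitochondrial iron importer, a level of 8.51 in Lin+ cells and 3.54 in LT-HSC, a difference of 4.98 ± 0.20. Among other enzymes of the pathway, Urod differed by 2.16 ± 0.20 and Ppox by 2.98 ± 0.20. Beta globin probes gave unequal values: Hbb-bs was at least 6907-fold higher, Hbb-b2 differed by 9.56 ± 0.21 and Hbb-bt by 5.69 ± 0.20, with Hbb-bt at 5.64 in LT-HSC. These copies are near-identical, so their values are uncertain one by one. The embryonic gene Hbb-bh1 was too near the floor to be ordered.

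Of 23 membrane and skeleton genes of red cells, 19 were higher, with a median of 4.39 (3.06 over the 15 measured on both arrays). Slc4a1, band 3, the anion exchanger, had a level of 8.92 in Lin+ cells and was not well above background in LT-HSC (measured level -3.91), at least 3713-fold higher in Lin+ cells. Rhd, a blood group protein, had a level of 7.72 in Lin+ cells and 0.40 in LT-HSC, a difference of 7.32 ± 0.21, and Kel, the Kell antigen, differed by 5.80 ± 0.22. Slc2a1, the glucose transporter that human red cells carry in abundance, differed by -0.80 ± 0.20. Of 26 factor and enzyme genes, 16 were higher, with a median of 1.57. Klf1, the factor that switches on adult beta globin, had a level of 3.55 in Lin+ cells and 0.29 in LT-HSC, a difference of 3.25 ± 0.21, Tfrc, the transferrin receptor, differed by 3.85 ± 0.21, Bpgm, which makes 2,3-bisphosphoglycerate, by 4.38 ± 0.20, and Epor, the erythropoietin receptor, by 2.26 ± 0.20. Gata1, the main GATA factor of red cells, differed by 0.92 ± 0.20, under 2-fold, and its levels of 4.83 in LT-HSC, 2.69 in ST-HSC, 6.15 in the progenitors and 5.75 in Lin+ cells were lowest in ST-HSC. Nfe2 differed by -0.058 ± 0.20 and the carbonic anhydrase gene Car1 by 0.86 ± 0.20.

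B cell genes were higher in 30 of 35 cases and lower in 2, with a median of 3.12 (2.15 over the 19 measured on both arrays). Vpreb3, a chaperone of the pre-B cell receptor, had a level of 7.62 in Lin+ cells and was not well above background in LT-HSC (measured level -4.56), at least 1514-fold higher in Lin+ cells. Vpreb1 and Igll1, the surrogate light chains of that receptor, had a difference of 4.81 ± 0.21 and one of at least 45.4-fold. Ms4a1, the gene of CD20, was at least 122-fold higher, Cd79a, a signalling chain of the B cell receptor, at least 17.8-fold, and Cd79b, its partner, differed by 3.12 ± 0.20. Ebf1, a factor that sets B cell identity, had a level of 2.11 in Lin+ cells and was not well above background in LT-HSC (measured level -4.95), at least 33.2-fold higher in Lin+ cells, and lay below that mark in ST-HSC and the progenitors too. Spib was at least 338-fold higher, and Pou2af1, a B cell coactivator, differed by 7.46 ± 0.35. Rag1, which cuts antigen receptor genes, was at least 25.6-fold higher. Pax5 was at least 2.53-fold higher and Rag2 differed by 1.73 ± 0.31, and both calls were lost under normexp correction and when a gene's probes were averaged. The members lower in Lin+ cells were Dntt, which adds bases at receptor gene joints, with a level of 4.07 in Lin+ cells and 5.95 in LT-HSC, a difference of -1.88 ± 0.20, and Myb, with a level of 4.97 in Lin+ cells and 6.55 in LT-HSC, a difference of -1.58 ± 0.20.

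T and NK cell genes were higher in 28 of 39 cases and lower in 1, with a median of 1.90 (1.41 over the 22 measured on both arrays). Cd2, an adhesion receptor, had a level of 5.33 in Lin+ cells and was not well above background in LT-HSC (measured level -3.32), at least 309.8-fold higher in Lin+ cells, and Ccr7, the chemokine receptor of naive T cells, differed by 8.42 ± 0.26. Cd3d and Cd3g, chains of the T cell receptor complex, were at least 67.7-fold and 19.1-fold higher, and Zap70, its kinase, differed by 4.25 ± 0.29. Lck, another kinase of the receptor, differed by 0.71 ± 0.20, and Bcl11b, a T cell factor, was at least 3.58-fold higher, though not under normexp correction (0.75). Lat, an adaptor of the receptor that platelets and mast cells share, was the lower member, with -2.24 ± 0.20. Among genes of NK and cytotoxic cells, Gzma, granzyme A, had a level of 3.96 in Lin+ cells and -2.01 in LT-HSC, a difference of 5.97 ± 0.27, and Tbx21, Ifng and Eomes were at least 11.7-fold, 9.67-fold and 5.34-fold higher. Ccl5 differed by 2.16 ± 0.20 and Nkg7 by 1.15 ± 0.20, both from levels well above background in LT-HSC, while Prf1, perforin, differed by -0.017 ± 0.21, Gzmb by -0.31 ± 0.22 and Klrb1c, the gene of NK1.1, by -0.093 ± 0.21.

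Genes of monocytes and macrophages were higher in 31 of 39 cases and lower in 1, with a median of 2.82 (3.41 over the 27 measured on both arrays). F13a1, the clotting factor XIII of monocytes, had a level of 6.07 in Lin+ cells and -1.96 in LT-HSC, a difference of 8.03 ± 0.26, while its other probe gave 2.70, and it was already high in ST-HSC (4.50) and the progenitors (5.96). Fn1, fibronectin, differed by 7.34 ± 0.21, Cd14, the endotoxin co-receptor, by 6.14 ± 0.22, Lyz2, lysozyme, by 5.65 ± 0.20, Ccr2, the receptor by which monocytes leave marrow, by 4.45 ± 0.28 and Csf1r, the M-CSF receptor, by 3.36 ± 0.20. Markers of resident macrophages were higher in part. Adgre1, the gene of F4/80, was at least 63.8-fold higher, Vcam1, by which marrow macrophages hold red cell precursors, differed by 5.91 ± 0.25, and Slc40a1, the iron exporter, by 4.30 ± 0.26. C1qa was at least 6.19-fold higher and C1qb differed by 2.51 ± 0.33, while Cd163, Mertk and Timd4 were not well above background on either array and Spic, the factor of iron-recycling macrophages, differed by -0.60 ± 0.21. The calls of Siglec1 and Mrc1, at least 2.70-fold and 3.98-fold higher, were lost under normexp correction, and that of Siglec1 also when its probes were averaged. Apoe, apolipoprotein E, was the lower member, with a level of 5.47 in Lin+ cells and 7.34 in LT-HSC, a difference of -1.87 ± 0.20.

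Of 9 class II antigen presentation genes, 5 were higher and 0 lower, beside 16.1% higher and 23.2% lower over all compared genes. H2-Aa differed by 3.78 ± 0.21, H2-Ab1 by 2.87 ± 0.20, H2-Eb1 by 3.90 ± 0.20 and Cd74, the invariant chain, by 3.69 ± 0.20, whereas the peptide loading genes H2-DMa and H2-DMb1 gave -0.66 ± 0.20 and 0.56 ± 0.20. The class II regulator Ciita was not well above background on either array. Of 14 dendritic cell genes, 9 were higher and 1 lower, with a median of 2.79 that was 0.24 over the 8 measured on both arrays. Irf8, a factor of dendritic cells and monocytes, differed by 3.58 ± 0.20, Cox6a2, which plasmacytoid dendritic cells share with muscle, by 4.85 ± 0.22, and Zbtb46, a factor of classical dendritic cells, was at least 10.9-fold higher. Flt3, the receptor of early progenitors and dendritic cells, was the lower member, with -2.67 ± 0.20. Siglech, a receptor of plasmacytoid dendritic cells, differed by 0.40 ± 0.20 on its brightest probe and by 5.73 on its other one. The plasma cell list was read as another cell type in the Lin+ gate, and 5 of its 11 genes were higher and 0 lower. Jchain, which joins secreted antibodies, differed by 4.73 ± 0.23 and Mzb1 by 4.53 ± 0.22, while Sdc1, the gene of CD138, differed by 0.0063 ± 0.21 and Xbp1 by 0.44 ± 0.20. All 11 were well above background in Lin+ cells and 9 in LT-HSC, with summed signals of 115 times the 75th percentile of the array in Lin+ cells and 48.4 in LT-HSC.

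**Figure D4:**
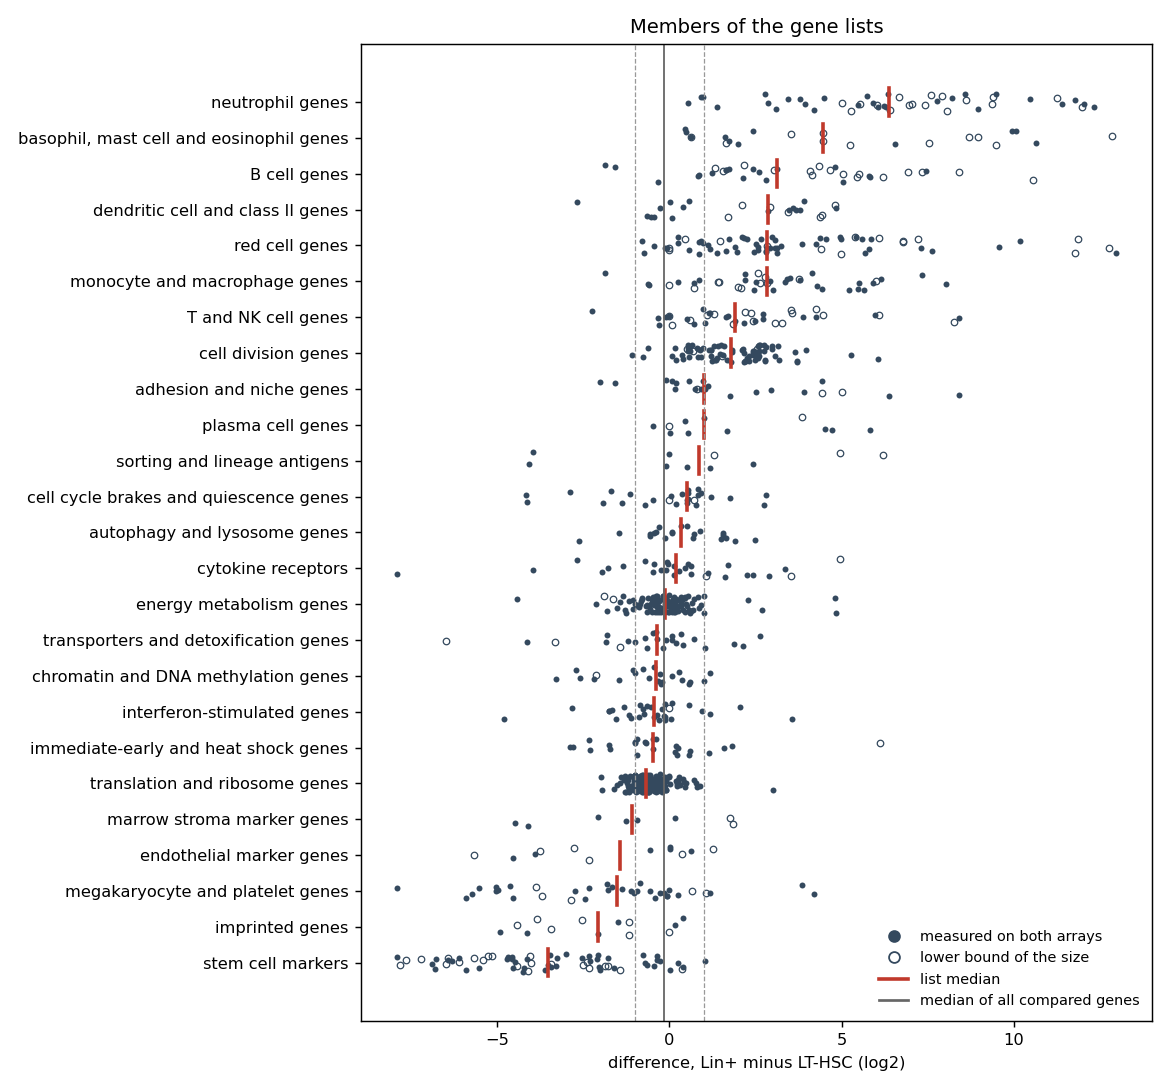
Differences (Lin+ minus LT-HSC, log2) of the compared members of each gene list, 1 point per gene, filled where measured on both arrays and open where the value is a lower bound of the size, with red lines at list medians, a grey line at the median of all compared genes and dashed lines at 2-fold. Medians run from 6.38 for neutrophil genes to -3.53 for stem cell markers, and translation and energy genes sit close to the grey line.

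Cell division genes were higher in Lin+ cells in 58 of 82 cases and lower in 1, with a median of 1.79, beside 16.1% higher and 23.2% lower over all compared genes. Of 45 mitosis genes, 41 were higher, with a median of 2.48. Mki67, the proliferation antigen Ki-67, had a level of 6.78 in Lin+ cells and 1.51 in LT-HSC, a difference of 5.27 ± 0.20, and its other probe gave 5.27. Cenpe, a motor protein of the kinetochore, had a level of 4.09 in Lin+ cells and 0.11 in LT-HSC, a difference of 3.98 ± 0.21, and Top2a, the topoisomerase of mitotic chromosomes, a level of 3.36 in Lin+ cells and 0.56 in LT-HSC, a difference of 2.80 ± 0.21. Ccnb1, the mitotic cyclin B1, differed by 2.16 ± 0.20, Cdk1, its kinase, by 2.26 ± 0.20 and Plk1 by 2.60 ± 0.20. The other end of the list was Aurkb, a kinase of the chromosomal passenger complex, with a level of -1.99 in Lin+ cells and -0.90 in LT-HSC, a difference of -1.09 ± 0.27, and that call was lost when the median gene or the spike-in controls were set equal and under normexp correction. Of 37 replication genes, 17 were higher and 0 lower, with a median of 0.93, and 23 were higher under either of those scalings. E2f2, an activator of the cell cycle that red cell precursors use, had a level of 7.80 in Lin+ cells and 1.74 in LT-HSC, a difference of 6.06 ± 0.20, and Rrm2, a subunit of ribonucleotide reductase, a level of 6.87 in Lin+ cells and 3.18 in LT-HSC, a difference of 3.69 ± 0.20. Ccne1, cyclin E1, differed by 3.64 ± 0.20. Subunits of the replicative helicase differed less, with 1.25 ± 0.20 for Mcm5, 0.90 ± 0.20 for Mcm2 and 0.069 ± 0.20 for Mcm6, and the sliding clamp gene Pcna gave 0.53 ± 0.20. In stage order, Mki67 had levels of 1.51 in LT-HSC, 4.89 in ST-HSC, 3.99 in the progenitors and 6.78 in Lin+ cells, and Cenpe of 0.11 in LT-HSC, 3.42 in ST-HSC, 0.94 in the progenitors and 4.09 in Lin+ cells, so that both had a higher level in ST-HSC than in the progenitors.

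Of 27 genes that hold back division, 4 were higher and 7 lower, with a median of 0.51, beside 16.1% higher and 23.2% lower over all compared genes. Cdkn1c, the CDK inhibitor p57 that keeps stem cells quiescent, had a level of -1.34 in Lin+ cells and 2.80 in LT-HSC, a difference of -4.14 ± 0.22, and Cdkn1a, the gene of p21, differed by -1.69 ± 0.20, a call lost when its probes were averaged (-0.90). Cdkn2c, the gene of p18, had a level of 3.43 in Lin+ cells and 0.63 in LT-HSC, a difference of 2.80 ± 0.21, and Cdkn2d, the gene of p19, differed by 1.21 ± 0.20. Cdkn1b, the gene of p27, differed by 0.78 ± 0.20. Rb1, the retinoblastoma protein, differed by 2.76 ± 0.21, and its relative Rbl2 by -1.15 ± 0.25, a call lost when the median gene or the spike-in controls were set equal and under normexp correction. Hes1, a target of Notch, differed by -2.89 ± 0.22, and Tsc22d1 by -4.17 ± 0.20. The Foxo genes were under 2-fold, with 0.82 ± 0.20 for Foxo1 and 0.20 ± 0.29 for Foxo3.

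Cytosolic ribosomal protein genes were lower by small amounts. All 78 cytosolic ribosomal protein genes had a difference below 0, from -1.23 for Rpl36a to -0.28 for Fau, with a median of -0.79, and 13 were called lower and 0 higher, beside 16.1% higher and 23.2% lower over all compared genes. The count depended on the processing, with 20 lower genes when a gene's probes were averaged, 7 under normexp correction, 1 when the median gene was set to no difference and 0 under quantile normalization or with equal spike-in controls, where the medians were -0.58, -0.37 and -0.50. Many of these genes have processed pseudogene copies that a probe may read. Of 38 ribosome biogenesis genes, 13 were lower and 0 higher, with a median of -0.79 that was -0.50 with the spike-in controls set equal. Npm1, nucleophosmin, had a level of 5.96 in Lin+ cells and 7.26 in LT-HSC, a difference of -1.31 ± 0.20, Polr1b, a subunit of RNA polymerase I, a level of 0.47 in Lin+ cells and 2.07 in LT-HSC, a difference of -1.60 ± 0.21, and Wdr12, which helps to build the large subunit, differed by -1.95 ± 0.21. Fbl, fibrillarin, differed by -1.05 ± 0.20, a call lost under 4 of the alternatives, and Ncl, nucleolin, by -0.44 ± 0.20. Mitochondrial ribosomal protein genes had a median of -0.35, with 6 of 77 lower and 0 higher. Among 17 translation factor genes, Eif2ak1, the heme-regulated kinase that matches globin synthesis to heme, was the member called higher, with a level of 2.33 in Lin+ cells and -0.67 in LT-HSC, a difference of 3.00 ± 0.21, and 3 were lower. Myc, which drives ribosome synthesis, had a level of 1.41 in Lin+ cells and 4.20 in LT-HSC, a difference of -2.79 ± 0.20.

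Oxidative phosphorylation genes had a median of -0.070, with 1 of 74 called higher and 1 lower, and the median changed sign to 0.14 when the median gene was set to no difference. The higher member was Cox6a2 and the lower one Uqcrb, with -1.05 ± 0.20, a call lost under 4 of the alternatives. Of 27 glycolysis genes, 4 were higher and 8 lower, beside 16.1% higher and 23.2% lower over all compared genes. Hk3, the hexokinase of myeloid cells, differed by 2.69 ± 0.20, and Slc16a3, a lactate exporter, had a level of 6.46 in Lin+ cells and 1.64 in LT-HSC, a difference of 4.82 ± 0.20. Aldoc, an aldolase isoform, had a level of 0.49 in Lin+ cells and 4.93 in LT-HSC, a difference of -4.43 ± 0.20, while its widely used relative Aldoa differed by 0.34 ± 0.20. Ldhb differed by -1.80 ± 0.20 and Ldha by -0.34 ± 0.20. The genes of kinases that hold back pyruvate oxidation were lower, Pdk1 with -1.36 ± 0.21, Pdk2 with -2.14 ± 0.21 and Pdk4 by at least 3.72-fold. Hk2 differed by -1.01 ± 0.20, a call lost under each of the 4 other scalings and normexp correction. Of 23 genes of the TCA cycle and of mitochondrial biogenesis, 5 were lower and 0 higher. Of 21 autophagy genes, 6 were higher and 2 lower. Bnip3l, which clears mitochondria from maturing red cells, had a level of 6.64 in Lin+ cells and 4.99 in LT-HSC, a difference of 1.65 ± 0.20, and Gabarapl1, a gene of the autophagosome, a level of 5.48 in Lin+ cells and 8.11 in LT-HSC, a difference of -2.63 ± 0.20, while its relative Gabarapl2 differed by 1.55 ± 0.20.

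The counts of the response and signalling lists are read beside 16.1% higher and 23.2% lower over all compared genes. Of 31 antiviral interferon-stimulated genes, 3 were higher and 9 lower, with a median of -0.44. Rsad2, viperin, had a level of 5.40 in Lin+ cells and 1.83 in LT-HSC, a difference of 3.57 ± 0.20, and Isg15, a ubiquitin-like modifier, differed by 2.05 ± 0.20, while Ifi44 had a level of -3.09 in Lin+ cells and 1.71 in LT-HSC, a difference of -4.80 ± 0.32 and Gbp2, a guanylate-binding protein, differed by -2.81 ± 0.20. Of 16 immediate-early genes, 3 were higher and 5 lower. Nr4a1, a nuclear receptor, had a level of 8.03 in Lin+ cells and 10.35 in LT-HSC, a difference of -2.32 ± 0.20, and Egr1 a level of 5.50 in Lin+ cells and 7.81 in LT-HSC, a difference of -2.31 ± 0.20, while Fos gave -0.94 ± 0.20 and Jun 0.16 ± 0.20. Of 9 heat shock genes, 1 was higher and 2 lower. Hspa1a, the stress-induced HSP70, had a level of 3.16 in Lin+ cells and was not well above background in LT-HSC (measured level -2.98), at least 68.8-fold higher in Lin+ cells. Of 22 adhesion and niche genes, 11 were higher and 2 lower. Itgb2, the beta chain of leukocyte integrins, differed by 3.90 ± 0.20, Cxcr4, the receptor for the marrow chemokine CXCL12, by 2.52 ± 0.20, and Cxcr5, a receptor of B cells, by 6.37 ± 0.33, while Itga4 gave 0.75 ± 0.20 and S1pr1 0.066 ± 0.20. Of 30 cytokine receptor genes, which include Kit and Flt3 from above, 10 were higher and 6 lower, with a median of 0.20.

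Of 22 compared genes of DNA methylation and Polycomb complexes, 2 were higher and 7 lower, beside 16.1% higher and 23.2% lower over all compared genes. The de novo methyltransferase genes Dnmt3a and Dnmt3b had levels of -0.079 and 1.55 in Lin+ cells, against 2.52 and 4.84 in LT-HSC, differences of -2.60 ± 0.21 and -3.29 ± 0.20. The maintenance enzyme gene Dnmt1 differed by 0.27 ± 0.20. Bmi1, a Polycomb protein that stem cells need, differed by -1.47 ± 0.21, and Ezh2, the methyltransferase of the complex, by 1.01 ± 0.20, at the 2-fold line. Of 13 compared imprinted genes, 10 were lower and 0 higher, with a median of -2.08. Of these 13, 6 were measured on both arrays, of which 4 were lower, and the median over those 6 was -1.78. Sgce had a level of -3.20 in Lin+ cells and 1.72 in LT-HSC, a difference of -4.91 ± 0.34, Grb10, an inhibitor of growth factor signalling, was not well above background in Lin+ cells (measured level -3.73), against a level of 0.96 in LT-HSC, at least 21.5-fold lower in Lin+ cells, and Dlk1, which encodes a Delta-like membrane protein, was at least 14.3-fold lower. Meg3, the non-coding RNA of the same locus, was at least 2.25-fold lower, a call lost under 4 of the alternatives, and Igf2 and Peg3 were not well above background on either array. Grb10 and Ndn also stand on the stem cell list, and Cdkn1c among the genes that hold back division. Of 25 genes of transport and detoxification, 4 were higher and 7 lower. Gstm2, a glutathione transferase, had a level of -2.19 in Lin+ cells and 1.94 in LT-HSC, a difference of -4.13 ± 0.26, Abcb1b, an efflux pump, differed by -1.81 ± 0.22, and Abcb1a was at least 2.67-fold lower, though not under normexp correction (-0.54).

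Several of the largest differences lay outside all lists. Unc93a2, of the UNC93 family of membrane proteins, had a level of 9.39 in Lin+ cells and -2.23 in LT-HSC, a difference of 11.63 ± 0.31. Zdhhc22, of the family of palmitoyl transferases, had a level of 8.67 in Lin+ cells and -2.65 in LT-HSC, a difference of 11.32 ± 0.32. Both were near the background in all the earlier fractions, with progenitor levels of -2.25 and -1.11, and neither had another compared probe. Averaging the 3 probes of Unc93a2 gave 3.49. Ifitm6, of the interferon-inducible membrane proteins, differed by 10.60 ± 0.30, and Rnase2a, an eosinophil-type ribonuclease, by 10.23 ± 0.24. At the low end, Trim47, a tripartite motif protein, had a level of -1.61 in Lin+ cells and 5.61 in LT-HSC, a difference of -7.22 ± 0.22, and its other probe gave -7.34. Col16a1, a collagen chain, differed by -7.03 ± 0.27 with -4.57 on its other probe, and Bex1 by -6.53 ± 0.24 with -5.98. Ctla2a, a cysteine protease inhibitor, had a level of 2.70 in Lin+ cells and 9.01 in LT-HSC, a difference of -6.30 ± 0.20, so that it was still well above background in Lin+ cells. Bdh2, Npdc1 and Fstl1 were not well above background in Lin+ cells and at least 124-fold, 121-fold and 99.3-fold lower.

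Some called genes lay next to each other in the RefSeq gene order of GRCm38.p6, and these runs were picked after their values were seen. Since 16.1% of compared genes were called higher and 23.2% lower, these shares alone give short runs, and none was tested. In the Hoxa cluster, Hoxa7 had a level of 0.23 in Lin+ cells and 4.01 in LT-HSC, a difference of -3.78 ± 0.21, and Hoxa5 was at least 39.3-fold lower. A run of 5 Hoxb genes, from Hoxb6 to Hoxb2, had a median of -3.30, with Hoxb4 at -3.30 ± 0.21. Armcx genes with Zmat1 and Tceal6 formed a run of 6 lower neighbours with a median of -3.36, and Gprasp and Bex genes with Arxes2 a run of 5 with -3.86. On the higher side, 10 neighbours among the glandular kallikrein genes had a median of 4.19, although these are near-identical copies that probes may not separate. A run of 6 S100a genes, from S100a2 to S100a9, had a median of 3.77, 7 neighbouring Clec4 lectin receptor genes had 2.84, and 9 NK receptor genes from Klrd1 to Klra2 had 2.72. Most of those 9 are Klra genes, similar copies that probes may not separate.

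Genes of long non-coding RNAs (lncRNA) leaned to the lower side. Of 197 compared lncRNA genes, 23 (11.7%) were higher and 68 (34.5%) lower, with a median of -0.41, beside 16.2% and 23.1% of 12998 protein-coding genes. The 90 compared genes of other types had 11.1% higher and 20% lower, with a median of -0.15, as protein-coding genes had. Peg13, an imprinted lncRNA, had a level of 3.20 in Lin+ cells and 6.33 in LT-HSC, a difference of -3.13 ± 0.20, and Snhg7, a snoRNA host gene, differed by -3.09 ± 0.21. Malat1, an abundant nuclear lncRNA, had a level of 2.50 in Lin+ cells and 0.48 in LT-HSC, a difference of 2.02 ± 0.21, and Mir22hg, the host gene of a microRNA, a level of -0.025 in Lin+ cells and -2.33 in LT-HSC, a difference of 2.31 ± 0.30. These 4 were chosen after their values were seen.

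The array also holds 16193 probes whose name is a genomic interval of build mm9, for which no annotation was used here, so what lies in each is not stated. Of these, 4704 were compared, of which 659 (14.0%) were higher in Lin+ cells and 678 (14.4%) lower, with a median of 0.071. With the spike-in controls set equal the counts were 961 higher and 474 lower, and with the median gene set to no difference 863 higher and 519 lower. Of 1139 intervals with at least 2 compared probes, 111 had at least 2 probes higher and none lower, 119 at least 2 lower and none higher, and 27 had calls both ways. The highest measured difference was at chr17:22420025-22457650, with a level of 6.11 in Lin+ cells and -0.11 in LT-HSC, a difference of 6.22 ± 0.21, although 1 of its 2 compared probes was called. The intervals chr4:119923882-119924244 and chr4:155585650-155608700 followed with 6.15 ± 0.26 and 5.64 ± 0.26, from 1 compared probe each. The lowest was chr6:31170350-31287353, with a level of -3.17 in Lin+ cells and 2.03 in LT-HSC, a difference of -5.19 ± 0.31, and all 3 of its probes were called lower. At chr17:84397891-84412748 the difference was -4.93 ± 0.25 with 3 of 3 probes lower, and at chr10:83181374-83249774 it was -4.45 ± 0.25 with 5 of 5.

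The middle fractions place these levels along the series, without a test. Ltf stayed near background up to the progenitors, and Ebf1, Rag1 and Cd2 were not well above background before the Lin+ array. Elane and Mpo were highest in the progenitors, at 8.73 and 11.58. Rhd had levels of 0.40 in LT-HSC, -5.45 in ST-HSC (not well above background), 5.54 in the progenitors and 7.72 in Lin+ cells, and Klf1 of 0.29 in LT-HSC, -2.55 in ST-HSC, 3.10 in the progenitors and 3.55 in Lin+ cells, so that both of these red cell genes were lowest in ST-HSC. Meis1 and Hlf were lower at each step, while Myc kept levels of 4.41 and 4.42 in ST-HSC and the progenitors and was low only in Lin+ cells. The labels give the gate of the progenitor fraction in more than 1 way, so its levels describe a fraction whose exact gate is uncertain.

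**Figure D5:**
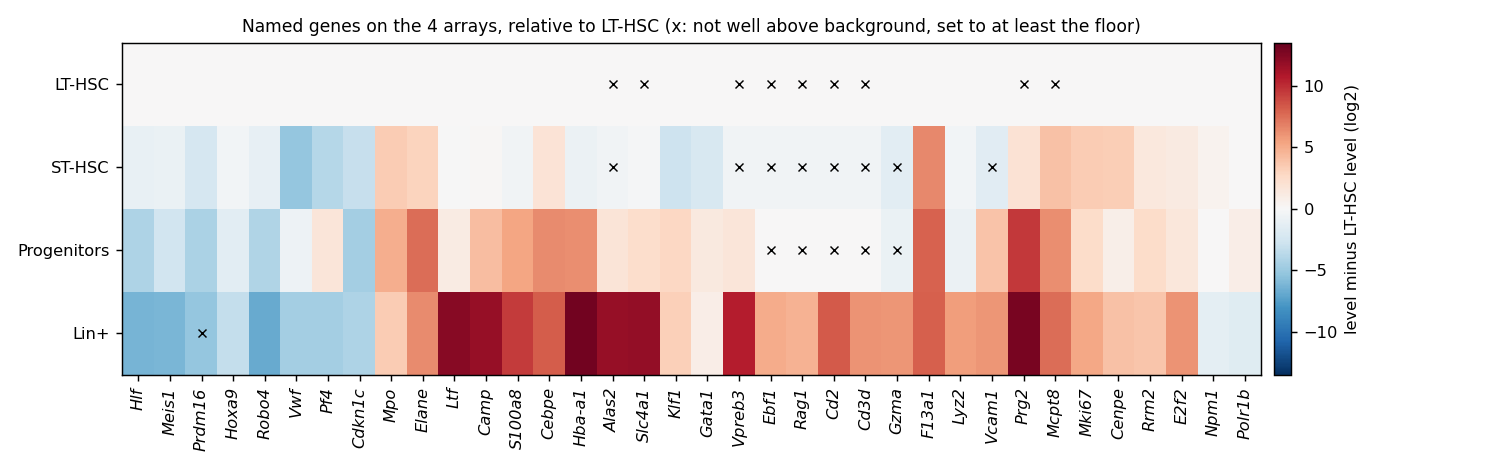
Levels of named genes on the 4 arrays minus the level in LT-HSC (log2 colour scale, red higher and blue lower than in LT-HSC), 1 column per gene and 1 row per fraction in stage order, with crosses where the probe was not well above background and was set to at least the floor of its array. Hlf, Meis1 and Robo4 are bluest in Lin+ cells, most granule, globin and lymphoid genes are red there, and Elane and Mpo are reddest in the progenitors.

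A gene was read from its brightest probe, and other probes mostly went the same way. Of 1121 called genes with another compared probe, 711 had every other probe called in the same direction and 15 had a probe called in the opposite direction. Among 2149 genes that were not called and had another compared probe, 165 had all other probes higher and 188 all lower, so the counts of calls above rest on the choice of probe. Of the members of the lists, 29 were in this position, among them Itgam, Siglech and Kdr, whose brightest probe gave 0.029 ± 0.20 and whose other probe gave -2.78.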

How the data were processed

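Total RNA of each fraction (10 ng) was amplified and labelled in 1 colour, per the labels' protocols, and hybridised to 1 Agilent array. The deposited scanner files hold the processed signal intensity of each spot, made by the authors with Agilent Feature Extraction 10.7.1.1, per the file headers. A value table that the authors deposited holds a linear ratio per probe. Of 55246 single-spot probes, 100% had a ratio within 1% of the scanner's processed signal divided by 1 constant per array, 230 for Lin+ cells and 191 for LT-HSC, close to the 75th percentile intensities of 230 and 192. The column medians were 0.0738 for Lin+ cells and 0.0619 for LT-HSC, and no centring per gene was found.

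From these values, log2 of the processed signal minus the 75th percentile over 55678 of the 55681 non-control probes was taken per array, and repeat spots were averaged. Of the probes used, 26762 (48.1%) were named through RefSeq accessions of GRCm38.p6, and each gene was read from its brightest probe over the 4 arrays. Where a side was not well above background, its level was set to the array's lowest well-above-background level if it lay under that (-3.47 in Lin+ cells, -2.94 in LT-HSC), and 233 genes that this left without an order count as compared but not called. No spot was saturated, and 0 sample columns were left out. Python 3.11.15 with numpy 2.4.6, pandas 2.3.3 and matplotlib 3.10.9 was used, with R 4.3.3 and limma 3.58.1 for normexp (offset 50). The plan named the mean signal for normexp; the median spot signal was used, as the mean was not among the columns.

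The contrast, the 25 gene lists and the named genes were chosen with earlier results of these data known. Named were the 4 markers, the sorting genes, preset list members, up to 5 called members of each list and direction, and the largest differences whose probes went the same way. A further 72 genes were chosen after their values were seen. Some results are not reported here. Gene levels were not compared with each other. The alternatives tried were 4 scalings, normexp, 2 filters, 2 rules for a gene's probe and the authors' table.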

Additional observations from a re-analysis of the deposited data

How the results depend on the processing

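No paired analysis was possible because each fraction has 1 array and the labels give only replicate 1. The counts of genes at least 2-fold higher (main 2144) and lower (main 3086) stayed within 1.5 times under all 10 alternatives, ranging from 1463 to 2852 higher and from 2162 to 3749 lower. The median difference over all compared genes was -0.15 as reported. It was 0.061 with the median gene, taken over genes measured on both arrays, set to no difference. With the spike-in controls set equal it was 0.12, and with no filter and no floor -0.52. The first 2 shifts follow from their construction, a constant added to all differences measured on both arrays. Differences with a side at the floor could be held at 0. For the filter, the cause was not tested. Of 310 named genes that were called, 280 kept the call under every alternative that gave them a value and 30 lost it under at least 1, most of them under normexp correction. Of the values recomputed for lists under the alternatives, 869 counts stayed within 1.5 times and 71 did not, and 298 medians moved by less than the median error of a difference and 172 by more. No difference of a named gene and no list median of at least 2-fold changed direction. With 1 array per fraction, differences between mice, sorts and hybridisations cannot be told apart from those between fractions, and dim genes have only bounds.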
